A study of Homo sapiens with 4 samples.

Results

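A set of 10 transcription factors that set the identity of squamous epithelium was followed in FaDu, an established cell line from a squamous carcinoma of the hypopharynx. They are TP63, SOX2, PAX9, ZNF750, KLF4, GRHL1, GRHL2, GRHL3, TFAP2A and OVOL1, 10 of the 25548 gene symbols in the deposited table, and all 10 were found there by symbol. They were chosen by name with their values in these same libraries already known, so their levels are given as a description. FaDu cells received 5 µM of 5-aza-2'-deoxycytidine (Aza), which traps DNA methyltransferases, on days 1 to 3 and 100 nM of trichostatin A (TSA), a histone deacetylase inhibitor, on day 3. Control FaDu cells received the vehicles on those days, DMSO for Aza and ethanol for TSA, and are labelled DMSO only. The second line of the study, UMSCC47, received 3 µM Aza and 300 nM TSA or vehicle. Each of the 4 groups is 1 library of polyadenylated RNA, so no difference below has a replicate check, no p-value can be given, and the spread between cultures is unknown.

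These factors act in layers. p63, the product of TP63, and SOX2 maintain basal squamous cells, and PAX9 works in the oral, pharyngeal and oesophageal epithelium. ZNF750 and KLF4 drive the switch from the basal state to differentiation. The grainyhead proteins GRHL1, GRHL2 and GRHL3 and the AP-2 protein TFAP2A maintain epithelial gene programmes and barrier genes, and OVOL1 is a zinc-finger repressor active in cells that leave the basal layer. Gene-level values do not separate the p63 isoforms with and without the transactivation domain.

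In the treated library TP63, PAX9 and the differentiation regulator ZNF750 were 3.18 to 7.36 times lower, while OVOL1 was 3.76 times higher. KLF4 was 1.40 times lower, and GRHL1, GRHL2 and TFAP2A differed less. SOX2 was 2.75 times lower at a low level, and GRHL3 stayed under 1 FPKM in both libraries. In bulk RNA, fewer cells that express a gene and less RNA per cell cannot be told apart. FPKM are normalised to transcript length and to library size, so levels can be compared between genes within a library. Changes are differences of log2(FPKM + 1), treated minus DMSO, a scale that makes differences between low values look smaller. Genes that reached 1 FPKM in at least 1 of the libraries are called measured, and those that differed 2-fold on this scale are called higher or lower.

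Among the 10 factors 9 were measured, of which 1 was higher, 3 were lower and 5 were within 2-fold. Of all 13558 measured genes, 16.1% were higher and 5.21% lower. At 4-fold, PAX9 and ZNF750 were lower and no factor was higher, beside 0.671% and 3.66% of the measured genes. The median change of the 9 measured factors was −0.47, and that of all 10 was −0.35, beside 0.13 over all measured genes. Of the 10, 7 had a lower value in the treated library and 3 a higher one. The FPKM of the 10 factors summed to 239 in the DMSO library and to 122 in the treated library.

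**Figure D1:**
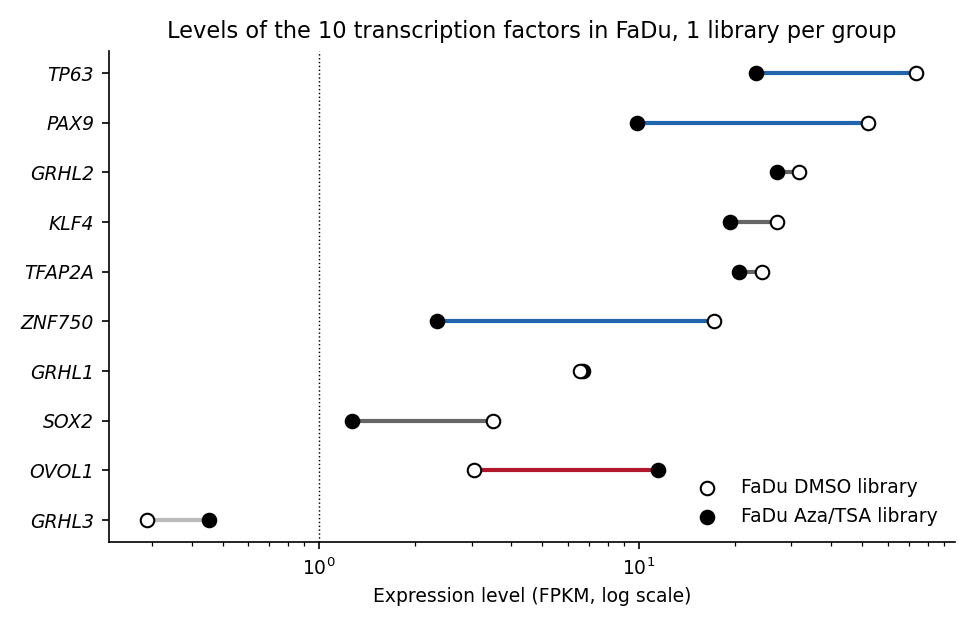
Expression level of each factor in the FaDu DMSO library (open circles) and the FaDu Aza/TSA library (filled circles), in FPKM on a log axis, with 1 library per group and so no error bars. Blue lines join factors at least 2-fold lower, the red line joins the 1 at least 2-fold higher, grey lines join the rest, and the dotted line marks 1 FPKM. TP63 is the highest in the DMSO library and GRHL2 in the treated library.

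The columns were checked before use. GAPDH, used by every cell, stood at 2590 and 2971 FPKM in FaDu but at 0.290 and 0.177 FPKM in UMSCC47. By rank the FaDu columns correlated with each other at 0.908 (Spearman, over rows), and every pair with a UMSCC47 column at 0.110 to 0.124. The UMSCC47 values thus cannot be tied to gene names, and none is given here. The FaDu values sum to 491963 and 516692 FPKM. Among 144 short RNA genes above 0 in both FaDu libraries, 38.2% had ratios of whole numbers within 0.01% when 1 read was worth the same FPKM in both. The absolute number of reads is unknown, so no counting interval is given. Defining squamous genes were present: all 12 squamous markers were measured, summing to 2499 and 2448 FPKM. The glandular markers summed to 1321 and 3239 FPKM, led by the simple keratins KRT8 and KRT18, which many carcinoma lines express. The 10 fibroblast markers summed to 0.879 and 6.80 FPKM (COL1A2 0 and 0.286), the 8 endothelial markers to 1.09 and 6.0 (PECAM1 0 and 0.0140), and the 10 leukocyte markers to 14.8 and 58.0. Of the leukocyte sum CD68, a lysosomal protein of many cells, gave 13.0 and 51.3 FPKM, and the pan-leukocyte gene PTPRC gave 0.0513 and 0.0385. The part of the glandular, fibroblast, endothelial and leukocyte sums in the results was not tested.

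Aza lowers DNA methylation, which sits on CpG sites, so the sequence before the start of each gene is shown for the factors that the comparison turns on. RefSeq's promoter table (GRCh38.p14) was matched by symbol for 7 of the 10 factors, which leaves out ZNF750, GRHL2 and OVOL1. The windows are the 250 bases before a start, 5′ to 3′ on the strand of the gene, with CpG sites in capitals. They come from TP63 (chr3:189631139-189631388, + strand), PAX9 (chr14:36657318-36657567, + strand), SOX2 (chr3:181711675-181711924, + strand), KLF4 (chr9:107489770-107490019, − strand) and GRHL1 (chr2:9951443-9951692, + strand). TP63 and PAX9 were 2-fold lower after treatment, SOX2 lay just short of that call, and KLF4 and GRHL1 differed less.
TP63: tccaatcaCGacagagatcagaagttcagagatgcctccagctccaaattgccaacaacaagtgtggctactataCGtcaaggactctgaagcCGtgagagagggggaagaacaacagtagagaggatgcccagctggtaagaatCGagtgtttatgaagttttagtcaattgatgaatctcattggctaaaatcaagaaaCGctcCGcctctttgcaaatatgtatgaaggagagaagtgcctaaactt
PAX9: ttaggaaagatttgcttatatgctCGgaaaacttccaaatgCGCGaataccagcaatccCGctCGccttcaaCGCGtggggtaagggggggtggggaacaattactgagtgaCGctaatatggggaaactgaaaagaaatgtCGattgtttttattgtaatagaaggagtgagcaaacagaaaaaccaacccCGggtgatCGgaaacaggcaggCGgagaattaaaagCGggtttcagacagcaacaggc
SOX2: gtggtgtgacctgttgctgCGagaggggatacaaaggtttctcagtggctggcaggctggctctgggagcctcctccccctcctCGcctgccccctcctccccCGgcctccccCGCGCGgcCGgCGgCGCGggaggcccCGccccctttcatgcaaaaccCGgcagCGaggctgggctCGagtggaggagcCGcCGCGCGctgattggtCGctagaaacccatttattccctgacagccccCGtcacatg
KLF4: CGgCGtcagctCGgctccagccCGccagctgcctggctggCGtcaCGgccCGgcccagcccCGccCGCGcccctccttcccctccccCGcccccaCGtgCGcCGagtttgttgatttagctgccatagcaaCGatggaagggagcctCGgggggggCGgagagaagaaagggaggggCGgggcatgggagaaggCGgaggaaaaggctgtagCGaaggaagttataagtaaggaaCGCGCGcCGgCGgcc
GRHL1: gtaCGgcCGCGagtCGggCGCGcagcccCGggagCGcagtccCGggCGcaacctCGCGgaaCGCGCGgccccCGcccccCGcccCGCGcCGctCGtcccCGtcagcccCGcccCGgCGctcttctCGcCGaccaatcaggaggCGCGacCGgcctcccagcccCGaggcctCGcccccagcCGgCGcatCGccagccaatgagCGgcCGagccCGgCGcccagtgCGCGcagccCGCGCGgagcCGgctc
The TP63 window held 6 CpG sites, the PAX9 window 13, the SOX2 window 20, the KLF4 window 25 and the GRHL1 window 45, against a median of 11 over all 35116 windows of this length in the table. GRHL1 thus had the most CpG sites of the 5, above 99.4% of all windows. A link between CpG count and change was not tested. TP63 has further start sites, and the window is for the 1 start in the table. Gene-level values do not show which start the FaDu cells used. The second PAX9 window of the table held 11 CpG sites, the TFAP2A windows 13 and 15, and the GRHL3 windows 3 and 10. The AP-2 core motif, searched as GCCNNNGGC on both strands, was in 3 of the 10 windows of these factors (SOX2, KLF4 and 1 GRHL3 window) and in 19.8% of all windows. The grainyhead motif AACCGGTT, searched on both strands, was in none of the 10 and in 0.117% of all windows. Methylation was not analysed here.

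TP63 was the highest of the factors in untreated FaDu cells, at 73.7 FPKM with vehicle and 23.2 FPKM with Aza/TSA. Its level was thus 3.18 times lower, a change of −1.63, below all but 1.03% of measured genes. In rank among measured genes its level went from percentile 93.4 to 75.4. PAX9, a paired-box factor, was second at 51.95 FPKM and was 9.90 FPKM after treatment. That is 5.25 times lower, a change of −2.28. SOX2, an HMG-box factor also used in stem cells, was 3.49 FPKM and 1.27 FPKM. Its FPKM ratio was 2.75, but its change of −0.98 lay just short of the 2-fold call because of the added 1 FPKM. With both TP63 and SOX2 lower, the ratio of their FPKM was similar in the 2 libraries, at 21.1 and 18.2. The ratio of TP63 to PAX9 was 1.42 and 2.34.

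The 2 differentiation regulators both had lower values after treatment, by unlike amounts. ZNF750, a zinc-finger protein that p63 induces in keratinocytes, was 17.2 FPKM with vehicle and 2.33 FPKM with Aza/TSA. It was 7.36 times lower, with a change of −2.45, the lowest of the 10 factors and below all but 0.457% of measured genes. KLF4, a Krüppel-like factor, was 27.0 FPKM and 19.2 FPKM, a change of −0.47. The FPKM ratio of KLF4 to ZNF750 was therefore 1.57 with vehicle and 8.25 with Aza/TSA. Such a ratio within a library does not depend on the scaling between libraries. None of the FPKM ratios given here was corrected for the trend with GC content described below.

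The grainyhead factors and TFAP2A held their levels within 2-fold. GRHL2, which maintains epithelial junction genes, was 31.8 FPKM with vehicle and 27.0 FPKM with Aza/TSA, a change of −0.23. GRHL1, an activator of desmosomal cadherin genes, was 6.53 and 6.70 FPKM, a change of 0.03 whose sign turned under 3 of the other settings. GRHL3, a factor of the late epidermal barrier, was 0.290 and 0.453 FPKM and was not measured by the filter. TFAP2A was 24.3 and 20.6 FPKM, a change of −0.22. Genes on the opposite strand share 5.29% and 11.4% of the exon bases of TFAP2A in GENCODE release 29. The ratio of GRHL2 to TFAP2A was 1.31 in both libraries. GRHL2 was the dominant grainyhead gene in both, at 4.87 times GRHL1 in the DMSO library and 4.03 times in the treated library.

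OVOL1 was the only one of the 10 at least 2-fold higher. It was 3.05 FPKM with vehicle and 11.5 FPKM with Aza/TSA, a change of 1.62, above 94.3% of measured genes. Its level went from 0.468 times that of GRHL1 to 1.71 times, and from 0.178 times that of ZNF750 to 4.92 times. Another gene on the opposite strand shares 27.1% of the exon bases of OVOL1 in GENCODE release 29, and whether reads were assigned by strand is not given in the sources used here, so part of the OVOL1 value could belong to it.

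The order of the factors by FPKM changed accordingly. In the DMSO library it was TP63, PAX9, GRHL2, KLF4, TFAP2A, ZNF750, GRHL1, SOX2, OVOL1 and GRHL3. In the treated library it was GRHL2, TP63, TFAP2A, KLF4, OVOL1, PAX9, GRHL1, ZNF750, SOX2 and GRHL3. GRHL2, TP63, TFAP2A and KLF4 lay between 19.2 and 27.0 FPKM there, and with 1 library their order has no spread to be judged by. TP63 was 2.32 times GRHL2 in the DMSO library and 0.858 times in the treated library. TP63 and PAX9 made up 30.8% and 21.7% of the summed FPKM of the 10 in the DMSO library, and 19.0% and 8.10% in the treated library, where GRHL2 made up 22.1%.

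**Figure D2:**
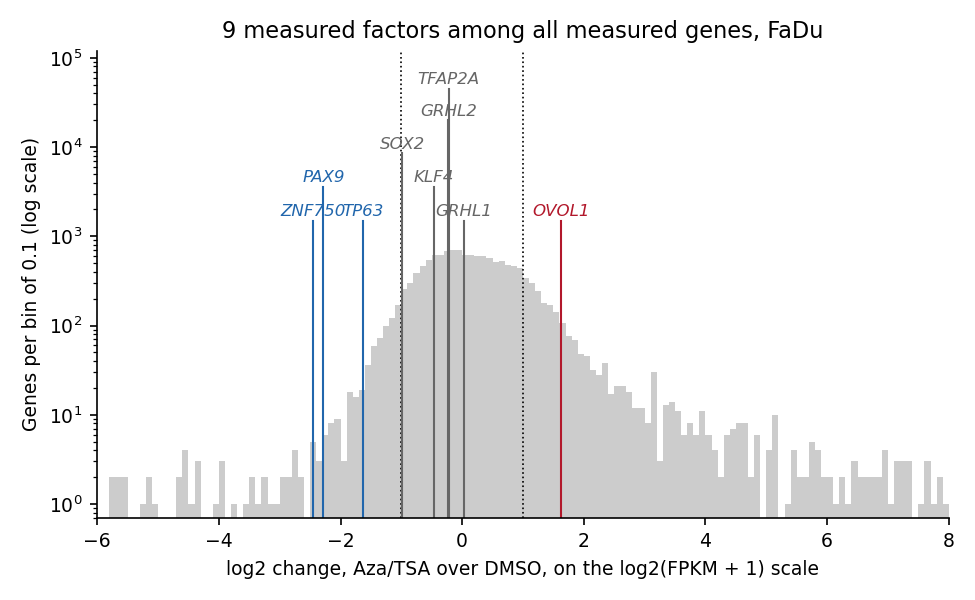
Number of measured genes in bins of 0.1 of log2 change (grey, log axis) in FaDu, with a vertical line at the change of each of the 9 measured factors and dotted lines at the 2-fold calls. ZNF750 at −2.45, PAX9 at −2.28 and TP63 at −1.63 lie in the thin lower tail, and OVOL1 at 1.62 lies in the wider upper tail.

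The change of a gene ran with the GC content of its transcripts, with a Spearman correlation of 0.67 over the 7127 genes that reached 5 FPKM in each FaDu library. Those genes share both libraries and are not independent replicates. The transcripts of the 10 factors had a median GC content of 54.4%, against 49.9% over measured genes, and thus lie on the side where values tended to be higher. PAX9 had 59.1%, ZNF750 56.0%, TP63 51.6% and SOX2 50.7%. After the GC trend was subtracted, PAX9 stood at −2.97, ZNF750 at −2.95, TP63 at −1.85 and SOX2 at −1.14, so that 4 factors were at least 2-fold lower, where 4.57% of all genes with a value were. OVOL1, at 58.9% GC, stood at 0.94, so that no factor was at least 2-fold higher, where 7.26% of all genes were. KLF4 stood at −0.90 and TFAP2A at −0.70. The median of the 9 measured factors was −0.90 after the correction.

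**Figure D3:**
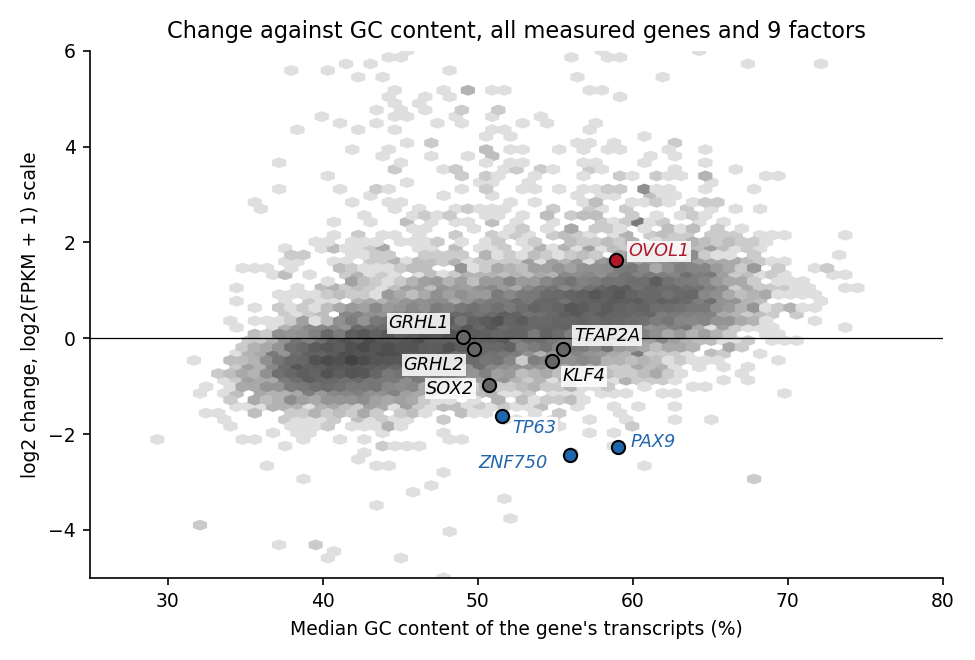
Log2 change in FaDu against the median GC content of the transcripts of each gene, for all measured genes (grey hexagons, darker for more genes) and the 9 measured factors (circles, blue at least 2-fold lower, red at least 2-fold higher). PAX9, ZNF750 and TP63 lie below the cloud at their GC content, while OVOL1 lies in its upper part.

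**Figure D4:**
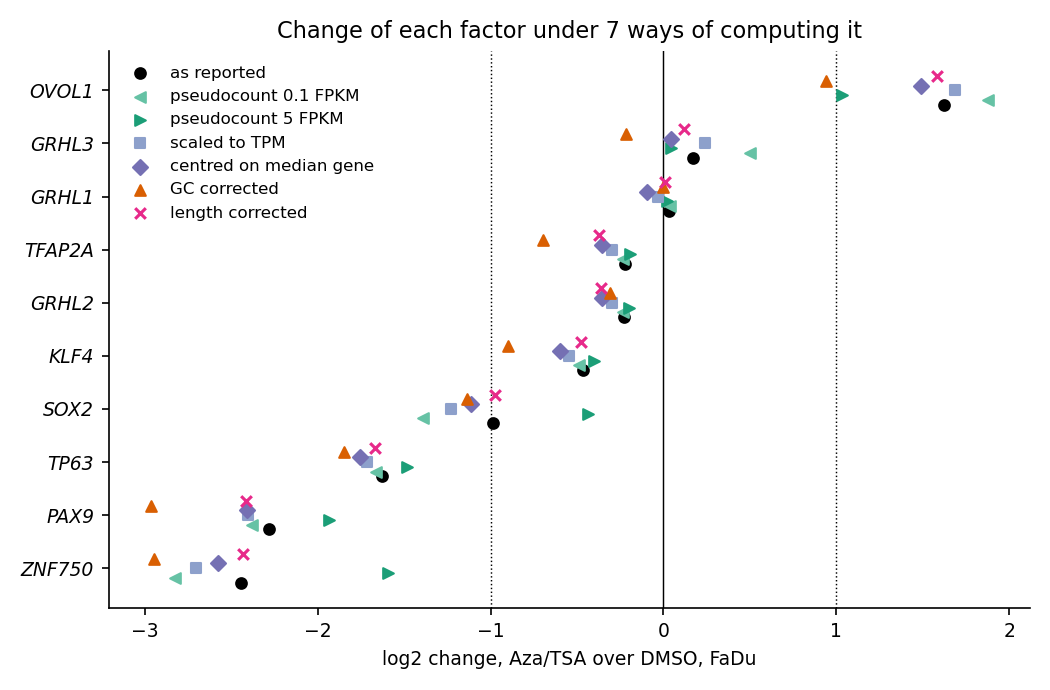
Log2 change of each factor, treated over DMSO, computed in 7 ways (symbols), with dotted lines at 2-fold. ZNF750, PAX9 and TP63 stay below −1 in all 7, SOX2 falls on either side of −1, and OVOL1 moves from 1.62 to 0.94 with the GC trend subtracted.

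Genes that p63 is known to control in basal cells did not share 1 direction. Of 25 such genes, all measured, the median change was −0.07, with 6 higher and 4 lower, beside 16.1% and 5.21% of all measured genes. All 25 reached 1 FPKM in the DMSO library, and of all genes that did, 10.5% were higher and 5.85% lower. The basal keratin gene KRT5 was 687 FPKM with vehicle and 226 FPKM with Aza/TSA, a change of −1.60, while its partner KRT14 was 49.8 and 147 FPKM, a change of 1.54. The ratio of KRT5 to KRT14 was thus 13.8 with vehicle and 1.54 with Aza/TSA. The desmosomal cadherin DSG3 was 22.1 and 3.16 FPKM (−2.47), and the hemidesmosomal linker DST was 54.3 and 17.7 FPKM (−1.56). The Notch ligand JAG1, the fourth gene that was lower and named outside the rule for named genes, was 14.8 and 4.95 FPKM. After GC correction 5 of the 25 were lower and none higher, beside 4.57% and 7.26% of all genes, with a median of −0.30.

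Genes for proteins that work with p63, KLF4 or ZNF750 differed less. Of 17 genes, all measured, none was 2-fold higher or lower, beside 16.1% and 5.21% of all measured genes. These 17 also reached 1 FPKM in the DMSO library, where the shares were 10.5% and 5.85%. The median was 0.03, a value whose sign turned with TPM scaling, centring on the median gene and both the GC and the length correction. The widest changes were those of the histone methyltransferase MLL2 (now KMT2D), at 5.08 and 10.4 FPKM (0.91), and PPP1R13L, a gene that p63 regulates, at 16.2 and 25.8 (0.64). The remodeller ATPase SMARCA4 was 11.5 and 17.4 FPKM (0.56), and WWP1, a ubiquitin ligase that acts on p63, was 12.3 and 8.98 (−0.41).

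Late differentiation genes, several of which ZNF750, KLF4 and GRHL3 are known to switch on, were mostly at low levels. Of 34 genes 21 were measured, including 9 higher and 1 lower, with a median of 0.97, or 0.49 over all 34. The shares over all measured genes were 16.1% higher and 5.21% lower. All 9 higher genes were under 1 FPKM in the DMSO library and were measured only through the treated library, so the filter set their direction. Of the 9 genes that reached 1 FPKM in the DMSO library, none was higher and 1 was lower (median 0.23), and the 9 higher genes are given here as values only. The cornified envelope genes SPRR2D (listed at 0, then 17.9 FPKM) and SPRR1B (0.719 and 13.2 FPKM) had changes of 4.24 and 3.04. The secreted protein gene SBSN was 0.115 and 17.3 FPKM, and the calcium sensor CALML5 was listed at 0 and then at 3.81 FPKM. The 1 lower gene, the lipid transporter ABCA12, was 4.58 and 1.32 FPKM and is named outside the rule. After GC correction 7 of the 21 were higher and 1, KRT4 in place of ABCA12, was lower (median 0.26), beside 7.26% and 4.57% of all genes.

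Epithelial junction and protease genes tied to the grainyhead and OVOL factors gave a count that the GC correction changed. Of 29 genes 28 were measured, 8 of them higher and 1 lower (median 0.63), beside 16.1% and 5.21% of all measured genes. The serine protease PRSS22 was 10.0 and 46.2 FPKM (2.10), and the protease inhibitor SPINT1 was 26.5 and 86.2 FPKM (1.66). The tight junction gene CLDN3 was 0.278 and 2.45 FPKM (1.43) and was measured only through the treated library. The defining epithelial genes CDH1, at 64.7 and 98.7 FPKM, and EPCAM, at 86.1 and 62.7 FPKM, were within 2-fold. After GC correction 1 of the 28, PRSS22, was higher and 1 was lower (median 0.07), beside 7.26% and 4.57% of all genes.

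Transcription factors of the epithelial-mesenchymal transition, which OVOL and grainyhead proteins are known to oppose, were few. Of 10 genes 4 were measured. SNAI2, a Snail family repressor found in basal keratinocytes, was 38.1 and 9.96 FPKM (−1.84), and its relative SNAI1, measured only through the treated library, was 0.475 and 6.53 FPKM (2.35). TWIST1 was 2.85 and 1.87 FPKM and TWIST2 1.29 and 1.78.

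Of 26 other epithelial transcription factors 19 were measured, with 2 higher and 2 lower, beside 16.1% and 5.21% of all measured genes. Their median was 0.24, which turned to −0.19 after GC correction. MYC, at 258 and 91.3 FPKM (−1.49), and KLF5, at 63.1 and 26.4 FPKM (−1.23), were lower. SOX15, at 21.6 and 51.3 FPKM (1.21), and CEBPA, at 1.27 and 3.87 FPKM (1.10), were higher, though neither was after GC correction (0.33 and 0.12). With that correction none of the 19 was higher and 4 were lower, beside 7.26% and 4.57% of all genes. The 4 were MYC (−2.15), ELF3 (−1.18), KLF5 (−1.15) and GATA3 (−1.01), of which ELF3 and GATA3 are named outside the rule. Among 20 paralogues of the 10 factors 10 were measured, with TFAP2E higher (0.090 and 1.89 FPKM, 1.41, or 0.67 after GC correction, and measured only through the treated library), KLF5 lower and a median of −0.15. SOX1 was 1.85 and 0.493 FPKM (−0.93, or −1.64 after GC correction) and KLF2 1.31 and 3.32 (0.90). With that correction none of the 10 measured paralogues was higher and 2, KLF5 and SOX1, were lower (median −0.27). TP73, a paralogue of TP63, was 0.239 and 0.458 FPKM.

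**Figure D5:**
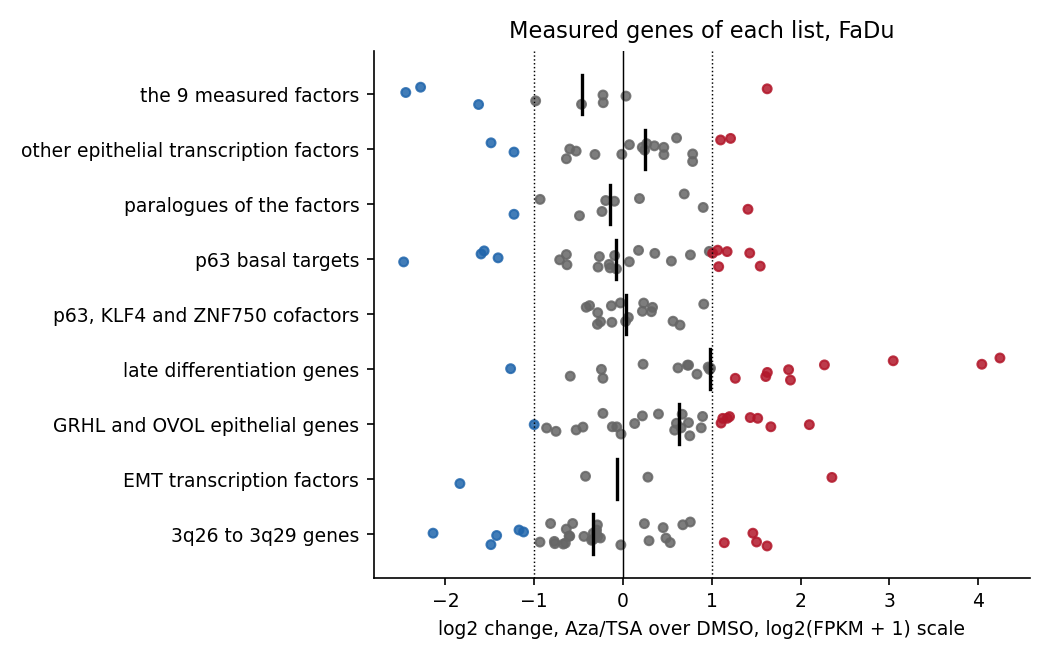
Log2 change of each measured gene (points, blue at least 2-fold lower, red at least 2-fold higher) in the 9 measured factors and 8 gene lists, with the median of each as a black bar and dotted lines at 2-fold. The factors have a median of −0.47. The median of 0.97 of the late differentiation genes rests in part on genes measured only through the treated library, and it is 0.23 over those that reached 1 FPKM in the DMSO library.

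Position was looked at next. TP63 and SOX2 lie on the long arm of chromosome 3, in a region often gained in squamous carcinomas. Of 37 other genes from 3q26 to 3q29, 36 were measured. Their median was −0.34, with 4 higher and 5 lower, beside 16.1% and 5.21% of all measured genes. After GC correction it was −0.14, with 2 higher and 4 lower, beside 7.26% and 4.57% of all genes. CLDN1, a tight junction gene, was 111 and 24.4 FPKM (−2.14), and the interleukin receptor subunit IL1RAP was 23.5 and 7.73 FPKM (−1.49). LEPREL1, a collagen prolyl hydroxylase gene and the protein-coding gene nearest after TP63 in the RefSeq table, was 4.83 and 16.9 FPKM (1.62), and the RNA-binding protein gene IGF2BP2 was 3.02 and 10.4 FPKM. TP63 and LEPREL1 thus differed in opposite directions.

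Of the 60 places for the 3 genes on either side of each factor, 16 had a gene in the deposited table. Of these 12 were measured, 1 higher (LEPREL1) and 2 lower, beside 16.1% and 5.21% of all measured genes. SLC25A21, a mitochondrial carrier gene beside PAX9, was 20.2 FPKM with vehicle and 3.61 FPKM with Aza/TSA, 5.60 times lower, close to the 5.25 times of PAX9. The 2 genes share 481 exon bases on opposite strands in GENCODE release 29, 7.97% of those of PAX9, so some reads may have been counted for both. NKX2-8, on the other side of PAX9, was 1.56 and 1.34 FPKM. Near ZNF750, the kinase gene FN3K was 5.43 and 2.08 FPKM (−1.06), while TBCD, a tubulin cofactor gene that spans ZNF750 on the opposite strand, was 18.4 and 21.0 FPKM, FN3KRP was 29.7 and 25.8, and B3GNTL1 was 3.23 and 2.63. RNASEH2C, near OVOL1, was 19.0 and 38.8 FPKM (0.99).

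The genes whose pair of FaDu levels was most like that of TP63, by distance on the log2(FPKM + 1) scale over the 2 libraries, were IDH1 at 70.9 and 23.6 FPKM, EBPL at 76.1 and 24.7, and XPOT at 64.3 and 25.8, at distances of 0.061, 0.099 and 0.24. For OVOL1 they were RASD1 at 3.01 and 11.6 FPKM, NR1D1 at 3.18 and 11.4, and PABPN1 at 3.01 and 11.1, at distances of 0.019, 0.046 and 0.053. With 2 libraries such a likeness rests on 2 values per gene.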

How the data were processed

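Polyadenylated RNA of FaDu and UMSCC47 cells was sequenced from 1 stranded library per group, 4 in all, grouped by the sample labels. The values deposited by the authors are FPKM, 1 column for each library, per the file headers. The submitters' processing notes name TopHat 1.3.2, Cufflinks 2.0.2 and the hg19 build. The annotation, the filters and any scaling of libraries were not given in the sources used here. In the FaDu columns 45 repeated rows were summed, leaving 25548 symbols. Changes used a pseudocount of 1 FPKM, a filter of 1 FPKM in either library and a 2-fold call. The GC and length trends were fitted by lowess (fraction 0.3, statsmodels 0.14.6, Python 3.11.15) on GENCODE release 29 transcripts, whose build differs from that of the files, over genes that reached 5 FPKM in each FaDu library. A GC value was found for 92.4% of measured genes and all 10 factors, and the correction is unreliable for genes near 0 FPKM. The calls and the correction were checked on simulated data. Promoter windows are from RefSeq.

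The factors, the lists and the naming rule were chosen with earlier results of these data known, the lists from general knowledge. Named genes are the 10 factors, the 4 measured genes with the widest change in each list, defining markers, the 3 genes on either side of each factor and the 3 genes most like TP63 and OVOL1. Some named items are not reported here. In the squamous, glandular, fibroblast, leukocyte and endothelial marker lists only defining or leading genes are named. Comparisons across lines and within UMSCC47 were left out. Alternatives tried were pseudocounts of 0.1 and 5 FPKM, other filters, TPM scaling, centring on the median gene, the highest of repeated rows, the GC and length corrections and a 4-fold call.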

Additional observations from a re-analysis of the deposited data

How the results depend on the processing

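TP63, PAX9 and ZNF750 were at least 2-fold lower under every setting that changed their values, and the count of lower factors was 3 or 4, or 2 at 4-fold. SOX2 passed the 2-fold call with a pseudocount of 0.1 FPKM (−1.39), TPM scaling (−1.23), centring on the median gene (−1.11) and GC correction (−1.14). GRHL1 turned to −0.030 with TPM scaling, −0.10 with centring and −0.0037 with GC correction, and GRHL3 to −0.22 with GC correction. OVOL1 fell short of the call with GC correction (0.94), so the number of higher factors was 0 there and 0 at 4-fold. Of the 155 measured genes in the 8 gene lists without the factors, 31 were higher and 14 lower. Over all measured genes the shares were 16.1% and 5.21%. The higher count was 14 with a pseudocount of 5 FPKM, beside 6.59% of all genes. With genes at 1 FPKM or more in the DMSO library it was 18, beside 10.5%. With GC correction it was 11, beside 7.26%, and at 4-fold 6, beside 3.66%. The lower count was 9 with a pseudocount of 5 FPKM, beside 1.87% of all genes, and 2 at 4-fold, beside 0.671%. The cause of these shifts was not tested. Of the 176 counts of single lists under other settings, 130 were within 1.5 times, 36 smaller and 10 larger. Over all genes 75.5% of calls were higher, 62.3% with centring, which shifts every change by 0.13, and 61.4% with GC correction. No paired analysis was possible because each group has 1 library, and leaving out a library was not possible for the same reason. The number of reads is unknown, so the precision of low values such as SOX2 and GRHL3 cannot be given.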

Other observations

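Of the keratins of simple epithelium, KRT7, KRT8, KRT18 and KRT20 were at least 2-fold higher, and KRT19 was within 2-fold. After GC correction KRT8 (0.93) and KRT18 (0.70) fell short of the call. KRT7 was 8.87 FPKM with vehicle and 327 FPKM with Aza/TSA, and KRT8 was 459 and 1356 FPKM. KRT20, a keratin of intestinal and urothelial cells, was 0.0744 and 11.4 FPKM and was measured only through the treated library. KRT19 was 316 and 270 FPKM, a change of −0.23, or −0.94 after GC correction. Of the 8 measured glandular markers 5 were higher and none lower (median change 1.41), beside 16.1% and 5.21% of all measured genes. After GC correction 3 were higher and 1 was lower (median 0.82), beside 7.26% and 4.57% of all genes. The 1 lower gene was the transcription factor gene NKX2-1, at 2.76 and 1.11 FPKM. KRT20 is counted among the 5 and among the 3, though the filter set its direction. The squamous markers had a median of 0.26, or −0.41 after GC correction. KRT19 and NKX2-1 were named after their values were seen.

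The noncoding gene SOX2-OT, which spans SOX2 and was named after its values were seen, was under the filter of 1 FPKM in both libraries, at 0.208 FPKM with vehicle and 0.0519 FPKM with Aza/TSA.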
